A study of Mus musculus with 10 samples.

Results

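The question addressed was what changes in hepatocyte RNA when p65 is lost in cells that already lack Nrf2. For this purpose, the 3 libraries of mice with a double knockout of Nrf2 and p65 (DKO) were compared with the 2 libraries of mice with a knockout of Nrf2 alone (Nrf2 KO), which are 5 of the 10 libraries sequenced. The comparison covered 13641 of 21939 genes, namely those with 10 or more counts summed over the 10 libraries. The corresponding loss of p65 in the presence of Nrf2, 2 p65 KO libraries against 3 control libraries, served as the comparison set and shares no library with the first.

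All mice were males of 8 to 9 weeks on a C57BL/6J background, and 1 library was made per mouse. Each of the 4 genotypes, controls included, received AAV8Cre, an adeno-associated virus with Cre recombinase under the thyroxine-binding globulin promoter, which is active in hepatocytes. Controls were wild-type C57BL/6J mice, Nrf2 KO mice carried Nrf2 flox/flox alleles, p65 KO mice carried p65 flox/flox alleles, and DKO mice carried both pairs. Hepatocytes were isolated 12 days after the injection by Liberase perfusion, low-speed centrifugation, and Percoll, a procedure that enriches hepatocytes but does not sort them. The floxed alleles mark separate breeding lines, so a line difference and a genotype cannot be told apart in this design.

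Nrf2, encoded by Nfe2l2, is a transcription factor that is released from Keap1 under oxidative or electrophilic stress and switches on genes of glutathione synthesis and detoxification. p65, encoded by Rela, is the main transactivating subunit of canonical NF-κB. It is held in the cytoplasm by IκB proteins and enters the nucleus after cytokine or microbial stimuli, where it drives genes of inflammation, acute-phase response, and cell survival. In the liver, NF-κB in hepatocytes is known both for its protection from tumor necrosis factor and for its control of signals exchanged with Kupffer cells, the resident macrophages.

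Total counts ranged from 33707165 to 49897382 in the 10 libraries and were at least 35357766 in the 5 libraries compared. Between 13201 and 13864 genes were detected in the DKO libraries and 13475 to 13481 in the Nrf2 KO libraries. Replicates of each genotype differed by far more than counting noise, with a chi-square per degree of freedom of 44.8 in the Nrf2 KO pair and of 116 to 204 in the DKO pairs. Tests of single genes below therefore weigh a difference against the spread between mice. That spread was estimated jointly from all 10 libraries of the 4 genotypes, not from the 5 compared alone. Normalized counts are estimated counts divided by the library's effective size (TMM) relative to the mean size. They are not corrected for gene length, so levels are compared between libraries and not between genes.

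The whole-gene counts of the targeted genes did not check the labels, since a gene-level table does not count the floxed exons apart. Nfe2l2 had 4738 and 5005 normalized counts in Nrf2 KO and 4111, 3434, and 5240 in DKO, above the 1990 to 2318 of the controls. Rela had 1268 and 1225 in Nrf2 KO and 1488, 1241, and 1034 in DKO, which overlapped with the controls at 1221 to 1276. Nqo1, a quinone reductase and classical Nrf2 target, had 84.0 and 63.0 in Nrf2 KO and 52.6, 71.8, and 103 in DKO, below the 181 to 218 of the controls. Albumin and 11 other hepatocyte markers were high in all 5 libraries, with a summed 5833800 and 6713300 normalized counts in Nrf2 KO and 5427600, 5408600, and 5335100 in DKO.

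A gene was called at a Benjamini-Hochberg adjusted p of at most 0.05 (edgeR quasi-likelihood test) and a difference of at least 2-fold. Added loss of p65 gave 59 called genes, 0.433% of those tested, of which 40 were higher in DKO (0.293%) and 19 were lower (0.139%). The higher genes included the MHC class II genes, Major Urinary Protein (Mup) genes, mitotic genes, the rhythmic gene Noct, and the iron-binding protein Lcn2. The lower genes included interferon-stimulated genes such as Ifit3 and Rsad2, the acute-phase gene Saa3, the hormone gene Fgf21, and the steroid dehydrogenase genes Hsd3b3 and Hsd3b5.

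In all 59 the DKO libraries did not overlap with the Nrf2 KO libraries. This follows largely from the call, which was made on the same libraries, and is no further support for it. Over all genes tested 15.8% lay wholly above and 16.4% wholly below. The 3 DKO libraries were also above the 7 others in 18 called genes and below them in 12. In 11 called genes both Nrf2 KO libraries lay above the 8 others, and in 16 they lay below them, so that for these it was the Nrf2 KO libraries that stood apart. An adjusted p of at most 0.05 at any fold change was reached by 70 genes (0.513%), and an unadjusted p under 0.05 by 1961 genes (14.4%). The count rests on 2 Nrf2 KO mice. It was 21 without Nrf2 KO replicate 1 and 18 without Nrf2 KO replicate 2, and 292 with DESeq2's Wald test, which included all 59. The genes that kept their call in all 18 alternatives included Eno1, Eno1b, Hsd3b3, Ifit3, Miip, Mup12, and Tmem51.

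**Figure D1:**
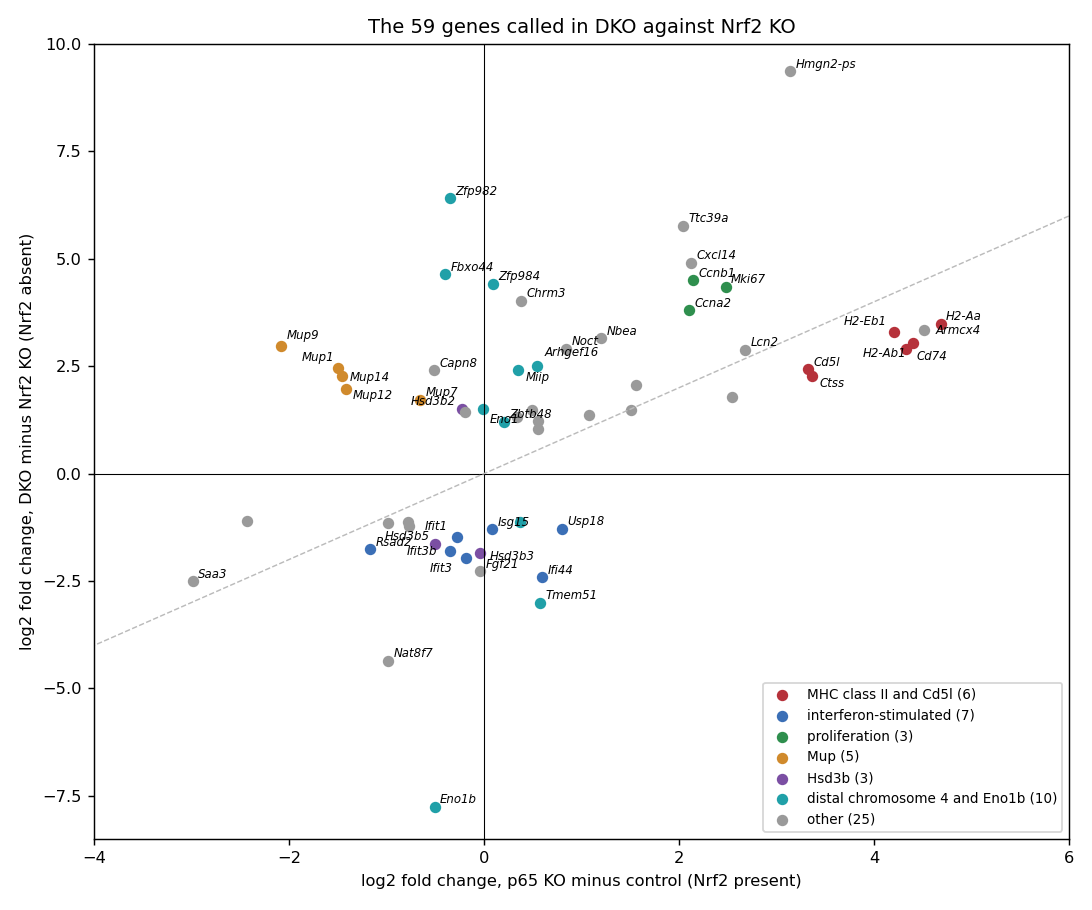
Each point is 1 of the 59 genes called in DKO against Nrf2 KO, with its log2 fold change for p65 loss with Nrf2 present (p65 KO minus control) on the horizontal axis and without Nrf2 (DKO minus Nrf2 KO) on the vertical axis, colored by gene group, and a dashed line where both are equal. Of these genes 43 had the same sign on both axes and 16 had opposite signs, among them the 5 Mup genes.

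Genes of antigen presentation by MHC class II were among the strongest increases. Class II molecules present extracellular peptides to CD4+ T cells and are made by macrophages, dendritic cells, and B cells, and in other cells mainly after interferon gamma, through the coactivator Ciita. Of 10 class II genes tested 5 were called higher in DKO, where 0.293% of all genes were, and none was called lower. The DKO libraries lay above both Nrf2 KO libraries in 8, where 15.8% of all genes tested did. The median log2 fold change was 2.60, against 0.01 over all genes tested. Without Nrf2 KO replicate 1 or replicate 2, only 1 and 0 of these genes were called.

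The called class II genes H2-Aa, H2-Ab1, and H2-Eb1 lie close together on chromosome 17, and their promoters are shown because all 3 contain the Y box, an element of class II promoters bound by NF-Y. The Y box was searched as CTGATTGG on both strands of the 200 bases before the start of each gene's canonical transcript, which for H2-Ab1 and H2-Eb1 lies downstream of the first annotated base of the gene, and is set in capitals. It was found in 3 of the 59 called genes and in 4.63% of 13637 promoters. The sequences are from the GRCm39 genome with the starts of GENCODE M39, written 5′ to 3′ on the strand of the gene, and lie at chr17:34506816-34506873 (minus strand), chr17:34482033-34482182 (plus strand), and chr17:34524754-34524811 (plus strand).
H2-Aa: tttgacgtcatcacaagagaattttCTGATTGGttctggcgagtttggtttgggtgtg
H2-Ab1: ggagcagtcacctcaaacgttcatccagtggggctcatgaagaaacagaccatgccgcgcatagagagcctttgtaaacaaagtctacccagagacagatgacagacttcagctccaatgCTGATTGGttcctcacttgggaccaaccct
H2-Eb1: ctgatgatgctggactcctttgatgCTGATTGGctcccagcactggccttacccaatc

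H2-Ab1, the class II beta chain of I-A, had 32.6 and 32.3 normalized counts in Nrf2 KO and 308, 344, and 157 in DKO, with a log2 fold change of 3.05 (SE, the standard error, 0.43, adjusted p = 0.0111). Its partner chain H2-Aa had 30.6 and 14.6 in Nrf2 KO and 296, 321, and 134 in DKO (log2 fold change 3.49, SE 0.52, adjusted p = 0.0138). H2-Eb1, the beta chain of I-E, had 28.7 and 19.4 in Nrf2 KO and 259, 329, and 120 in DKO (3.30, SE 0.48, adjusted p = 0.0132). In each of the 3 genes DKO replicate 3 was the lowest of the DKO libraries and still several-fold above both Nrf2 KO libraries.

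Cd74, the invariant chain that chaperones class II molecules, had 113 and 82.4 normalized counts in Nrf2 KO and 944, 811, and 410 in DKO, a log2 fold change of 2.89 (SE 0.39, adjusted p = 0.0102). Ctss, the protease that cleaves the invariant chain, had 45.5 and 21.8 in Nrf2 KO and 196, 166, and 119 in DKO (2.27, SE 0.36, adjusted p = 0.0193). Neither promoter window held the Y box, and that of Ctss overlapped an annotated exon. Ciita, the coactivator, had 2.97 and 1.62 against 8.42, 10.1, and 6.87 and was not called. In contrast to class II, none of 19 genes of MHC class I presentation and the immunoproteasome was called (median 0.29), and the log2 fold change of the immunoproteasome subunit Psmb9 was 1.01 (adjusted p = 0.13). Of these 19, 15 had a positive log2 fold change, and the DKO libraries lay above both Nrf2 KO libraries in 9 and below in 0. Over all genes tested 15.8% lay wholly above and 16.4% wholly below.

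Markers of Kupffer cells had higher counts as well. All 12 Kupffer cell markers were higher in each DKO library than in both Nrf2 KO libraries, as were 15.8% of all genes tested. The median log2 fold change of the markers was 2.08, and 1 of them was called. None of the 12 markers was at 0. This gene was Cd5l, a protein secreted by macrophages, with 124 and 42.8 normalized counts in Nrf2 KO and 519, 443, and 365 in DKO (2.43, SE 0.44, adjusted p = 0.0437). Its call was lost under 12 of the 18 alternatives, among them the omission of any DKO library. C1qb, a subunit of complement C1q, and Marco, a scavenger receptor, missed the threshold with adjusted p-values of 0.0508 and 0.0692.

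The summed Kupffer cell markers were 814 and 254 in Nrf2 KO, 2905, 2041, and 1715 in DKO, 368 to 957 in control, and 6190 and 4516 in p65 KO. The class II genes summed to 271 and 179 in Nrf2 KO, 2101, 2073, and 976 in DKO, 154 to 324 in control, and 5133 and 4074 in p65 KO. Both sums thus had the same order of genotypes, with DKO between p65 KO and the overlapping Nrf2 KO and control libraries. The order was not particular to them, since the sinusoidal endothelial markers below had it as well. Whether the class II RNA came from Kupffer cells in the preparation was not tested, and in bulk RNA more cells of a type and more RNA per cell cannot be told apart.

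Markers of other nonparenchymal cells gave no calls. The sums over the tested markers were 79.1 and 58.2 in Nrf2 KO against 122, 184, and 85.8 in DKO for monocytes and dendritic cells. They were 140 and 165 against 465, 182, and 351 for B cells and 62.3 and 59 against 164, 86.4, and 66.4 for T and NK cells. All 10 markers of sinusoidal endothelial cells had a positive log2 fold change, and their sum was 2132 and 1106 in Nrf2 KO against 2707, 3344, and 2230 in DKO. In control this sum was 817 to 1831, and in p65 KO 5841 and 4272. The 10 stellate cell markers summed to 289 and 172 against 348, 926, and 348, with DKO replicate 2 the highest of these. Stellate sums were 190 to 397 in control and 1980 and 1925 in p65 KO. In contrast, the p65 KO sums of B cells (59.9 and 80.3) and of T and NK cells (26.4 and 32.1) were below DKO. Neutrophil markers stayed low, at 6.92 and 8.08 in Nrf2 KO and 34.7, 32.5, and 8.01 in DKO. In each of these lists the DKO sums were higher on average. Ms4a1, Cd8a, and Ly6g, which define B cells, cytotoxic T cells, and neutrophils, were under the count filter.

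A few interferon-stimulated genes were lower in DKO. Genes of this kind are induced by type I interferons and viral RNA sensing through a complex of STAT factors and IRF9, which binds the interferon-stimulated response element (ISRE), and many of their products restrict viral RNA. Of 35 such genes 6 were called lower in DKO, where 0.139% of all genes were, and none was called higher. The DKO libraries lay below both Nrf2 KO libraries in 14 of them and above in 2, with a median log2 fold change of -0.19. Over all genes tested 16.4% lay wholly below and 15.8% wholly above. Of the 35 genes 23 had a negative and 12 a positive log2 fold change. The list summed to 37618 and 37346 normalized counts in Nrf2 KO and 35583, 44761, and 26979 in DKO, so the sums overlapped. Such a sum is weighted toward abundant members and does not show the direction of most genes. The called members were Ifit1, Ifit3, Ifi44, Rsad2, Usp18, and Isg15. Ifit3b, a close copy of Ifit3 outside this list, was called lower as well. Without Nrf2 KO replicate 1 the number called fell to 2, and without Nrf2 KO replicate 2 it fell to 1, which was Ifit3.

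The promoters of 5 of these genes are shown because they hold the ISRE as searched here. The ISRE was searched as 2 copies of GAAA separated by 2 bases of any kind, on both strands of the same 200 bases. Matches may overlap, and one on the opposite strand reads as 2 copies of TTTC. It was present in 8 of the 59 called genes, which were Ifit1, Ifit3, Ifit3b, Isg15, Rsad2, and Usp18 among the lower and Ctss and Cxcl14 among the higher genes. Over all 13637 promoters 2.41% held it. The sequences, from GRCm39 and 5′ to 3′ on the strand of the gene with matches in capitals, lie at chr19:34618160-34618238 (plus), chr19:34560749-34560898 (plus), chr4:156285304-156285453 (minus), chr6:121222757-121222840 (plus), and chr12:26506452-26506601 (minus).
Ifit1: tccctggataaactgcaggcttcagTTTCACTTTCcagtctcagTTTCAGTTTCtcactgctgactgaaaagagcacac
Ifit3: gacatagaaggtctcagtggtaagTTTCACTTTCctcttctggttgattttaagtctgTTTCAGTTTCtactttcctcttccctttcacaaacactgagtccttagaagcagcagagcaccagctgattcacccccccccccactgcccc
Isg15: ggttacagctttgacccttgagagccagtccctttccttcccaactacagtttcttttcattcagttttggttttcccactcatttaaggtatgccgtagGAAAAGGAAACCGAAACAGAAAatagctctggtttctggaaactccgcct
Usp18: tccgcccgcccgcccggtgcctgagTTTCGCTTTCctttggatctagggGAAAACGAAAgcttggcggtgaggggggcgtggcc
Rsad2: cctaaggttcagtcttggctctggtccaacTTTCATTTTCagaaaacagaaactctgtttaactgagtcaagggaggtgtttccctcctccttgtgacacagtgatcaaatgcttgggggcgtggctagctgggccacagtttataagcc

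Ifit3, which helps Ifit1 bind foreign RNA, had 512 and 560 normalized counts in Nrf2 KO and 168, 126, and 120 in DKO. Its log2 fold change was -1.96 (SE 0.19, adjusted p = 0.00116), and the call held in every alternative. The control libraries had 319, 372, and 269 and the p65 KO libraries 263 and 299, so Nrf2 KO was above and DKO below all other libraries. Because Ifit3 and Ifit3b share sequence, their sum is also given, which was 622.8 and 680.6 in Nrf2 KO and 196.7, 164.9, and 151 in DKO. Ifit3b alone had 111 and 120 against 28.4, 39.3, and 30.9 (-1.81, SE 0.32, adjusted p = 0.0349). The Ifit3b call was lost in 9 of the 18 alternatives, among them the omission of either Nrf2 KO library.

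Ifi44, an interferon-induced gene, decreased from 161 and 238 normalized counts in Nrf2 KO to 27.4, 39.3, and 45.8 in DKO (-2.41, SE 0.28, adjusted p = 0.00382). The 3 control libraries lay between these groups at 87.5 to 123. Its promoter window had no ISRE by these letters. Rsad2, or viperin, an antiviral radical SAM enzyme, had 486 and 437 in Nrf2 KO and 165, 125, and 119 in DKO (-1.76, SE 0.26, adjusted p = 0.0135). Ifit1, which binds the caps of foreign RNA, had 465 and 471 in Nrf2 KO and 176, 148, and 178 in DKO (-1.48, SE 0.21, adjusted p = 0.0111). With the controls at 218 to 384 and p65 KO at 235 and 248, both Nrf2 KO libraries lay above the 8 others.

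The ubiquitin-like modifier Isg15 and Usp18, the protease that removes it and dampens interferon receptor signaling, fell together. Isg15 had 535 and 558 normalized counts in Nrf2 KO and 247, 214, and 205 in DKO (-1.30, SE 0.21, adjusted p = 0.0235). The controls had 249 to 385 and the p65 KO libraries 364 and 260, so both Nrf2 KO libraries lay above the 8 others. Usp18 had 675 and 756 against 333, 291, and 260 (-1.28, SE 0.19, adjusted p = 0.0135), with the controls at 291 to 453. Dhx58, which encodes the RNA sensor LGP2, passed the adjusted p but not the 2-fold threshold, with 659 and 615 against 368, 342, and 351 (-0.85, adjusted p = 0.0316). Cxcl9, a chemokine induced by interferon gamma, had 262 and 322 against 76.8, 136, and 112 (-1.43, adjusted p = 0.0814).

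**Figure D2:**
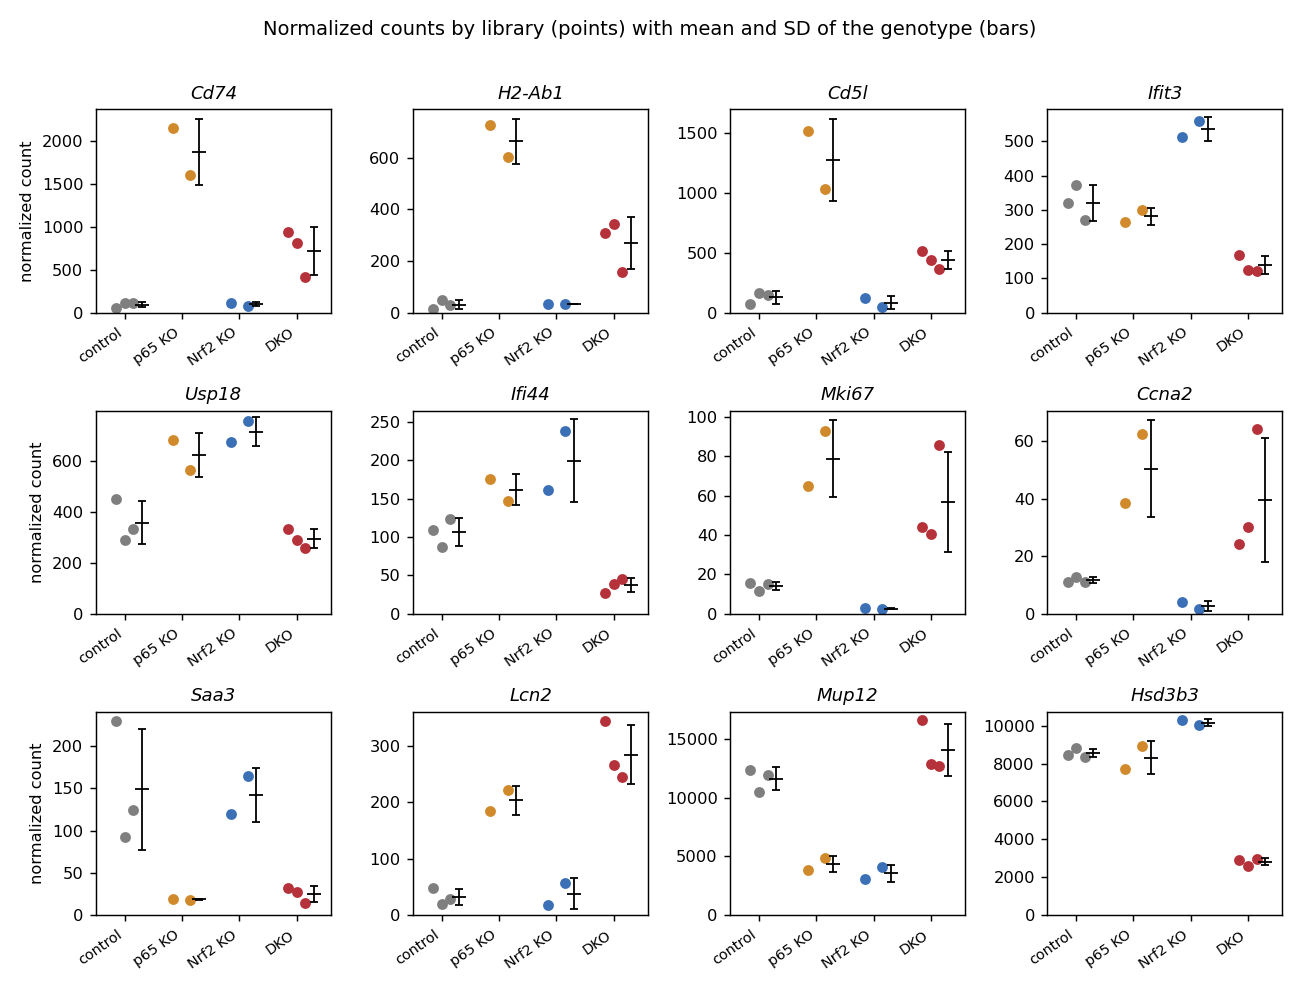
Normalized counts (vertical axis, linear, from 0) of 12 called genes in each of the 10 libraries by genotype, with 1 point per mouse and bars for the mean and SD of the genotype. H2-Ab1 rose from 32.6 or less in both Nrf2 KO libraries to 157 or more in DKO, and Ifit3 fell from 512 or more to 168 or less.

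Canonical NF-κB genes were then examined. None of 25 genes of NF-κB subunits and signaling was called (median -0.07). In that list the DKO libraries lay below both Nrf2 KO libraries in 8 genes and above in 0. Likewise, none of 32 feedback and target genes was called (median 0.08). In the target list the DKO libraries lay above both Nrf2 KO libraries in 8 genes and below in 3. Over all genes tested 15.8% lay wholly above and 16.4% wholly below. The interferon regulatory factor Irf1, with the lowest p of the target list, had a log2 fold change of 0.67 (adjusted p = 0.158). In the acute-phase list, 1 of 30 genes was called higher and 1 lower, and in the list of 15 chemokines 1 was called higher. Among all genes tested 0.293% were called higher and 0.139% lower.

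Saa3, a serum amyloid A gene with NF-κB-dependent induction, had 120 and 165 normalized counts in Nrf2 KO and 32.6, 26.9, and 14.9 in DKO (-2.51, SE 0.42, adjusted p = 0.0267). Loss of p65 with Nrf2 present gave a similar value of -2.99. The Saa3 call was lost when either Nrf2 KO library, DKO replicate 2, or DKO replicate 3 was left out. Lcn2, a siderophore-binding acute-phase protein, went the other way, with 18.8 and 57.4 in Nrf2 KO and 344, 266, and 245 in DKO (2.88, SE 0.45, adjusted p = 0.0184) and 2.67 with Nrf2 present, a call lost without Nrf2 KO replicate 1. Cxcl14, a chemokine, had 0 and 2.42 in Nrf2 KO and 47.3, 30.3, and 50.3 in DKO. The ratio was 32 with a counting interval from 10.7 to 158 (adjusted p = 0.0266). The Cxcl14 call was lost in 8 of the 18 alternatives, among them the omission of either Nrf2 KO library. Hamp, which encodes the iron hormone hepcidin, had a log2 fold change of -1.27 (adjusted p = 0.149). The κB consensus occurred in the promoter windows of 2 called genes, Cd74 and H2-Aa, and in 3.58% of all promoters, with no match in Saa3 or Lcn2. The Lcn2 window lay downstream of the first annotated base of the gene and overlapped an annotated exon. The bases upstream of that first base were not searched.

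The mitotic genes called higher in DKO were Mki67, Ccnb1, and Ccna2. The study chose 9 proliferation genes on these samples, which are therefore not independent evidence of a direction. All 9 had DKO libraries above both Nrf2 KO libraries, where 15.8% of all genes tested did, and 2 of the 9 were called. Their summed level was 16.8 and 32.3 normalized counts in Nrf2 KO, 210, 235, and 564 in DKO, 74.7 to 106 in control, and 348 and 493 in p65 KO. Thus, Nrf2 KO was the lowest genotype and DKO overlapped with p65 KO. The median log2 fold change was 3.90 when the 2 genes at 0 in both Nrf2 KO libraries were set to their lower bound. Without DKO replicate 2 or 3, 1 gene was called, with either Nrf2 KO library left out 0 were, and with DESeq2 all 9 were.

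Mki67, which encodes the proliferation antigen Ki67, had 2.97 and 2.42 normalized counts in Nrf2 KO, 3 reads each, and 44.2, 40.4, and 85.8 in DKO. The ratio of 21.1 had a counting interval from 9.48 to 58.4 (log2 fold change 4.34, SE 0.57, adjusted p = 0.00835). Ccnb1, the cyclin that starts mitosis with Cdk1, had 1.98 and 0.808 against 14.7, 33.7, and 51.5 (ratio 24.6, interval 8.14 to 121, adjusted p = 0.0369). Ccna2, the cyclin of S phase and G2, was called as well, with 3.95 and 1.62 against 24.2, 30.3, and 64.1 (adjusted p = 0.037). The calls of Ccnb1 and Ccna2 were lost in 11 and 10 of the 18 alternatives. For Mki67 the controls had 11.8 to 15.5 and the p65 KO libraries 65 and 92.6, so the Nrf2 KO libraries were the lowest of the 10, and this call was lost when either of them was left out. In all 3 genes DKO replicate 3 was the highest library of the comparison.

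Aurkb and Kntc1, which act in chromosome segregation and the spindle checkpoint, were not detected in either Nrf2 KO library and were at least 8.78-fold and at least 10.2-fold higher in DKO, taking 3 counts per library as the floor. Top2a and Cdk1 had log2 fold changes of 3.62 (adjusted p = 0.0851) and 2.38 (adjusted p = 0.0895). In a broader list of 30 G2/M genes, the DKO libraries lay above in 26 and 1 gene, Ccna2, was called, with a median log2 fold change of 1.74 with 6 genes at their bound. In 32 genes of S phase and replication, the DKO libraries lay above in 12, where 15.8% of all genes tested did. None of the 32 was called (median 1.02). Counts of all these genes were low, and whether they came from hepatocytes or other cells was not tested. Hmgn2-ps, named as a pseudogene of the chromatin protein gene Hmgn2, is annotated as protein-coding. It rose from 0 in both Nrf2 KO libraries to 61.0, 53.9, and 133 in DKO, at least 30.6-fold. Its reads can be shared with near-identical copies, and its call was lost when either Nrf2 KO library was left out.

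Major Urinary Proteins, pheromone carriers that the male mouse liver makes under growth hormone, were more abundant in each DKO library than in both Nrf2 KO libraries when summed. Their genes lie in a cluster on chromosome 4 and are nearly identical in sequence, so single members are uncertain and the sum is given first. The 22 Mup genes summed to 1934463 and 2674035 normalized counts in Nrf2 KO and 7009713, 3983361, and 6502018 in DKO. This was 5.22 and 6.63 percent of the library in Nrf2 KO and 16.6, 10, and 15.5 percent in DKO. The log2 difference was 1.32 (exact permutation test, 2-sided, p = 0.1, the smallest that 3 against 2 libraries allow). In control the sum was 2741528 to 3705442 and in p65 KO 1397761 and 1722151, so DKO was the highest and p65 KO the lowest genotype.

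Of the 22 genes 21 had a positive log2 fold change (median 2.01), 13 had DKO libraries above both Nrf2 KO libraries, and 5 were called higher, namely Mup1, Mup7, Mup9, Mup12, and Mup14 (chr4:60066445-61260077). Over all genes tested 15.8% lay wholly above and 0.293% were called higher. Mup12 had 3071 and 4075 normalized counts in Nrf2 KO and 16644, 12898, and 12745 in DKO (1.98, SE 0.18, adjusted p = 0.00115) and kept its call throughout. The controls had 10531 to 12415 and the p65 KO libraries 3852 and 4867, so either single knockout was low and DKO was above the controls. Mup7, the most abundant called member, had 429970 and 660470 against 2159100, 1405400, and 1795300. Mup9 was more uneven, with 6440 and 6719 against 64675, 17895, and 72769. The count of called Mup genes was 1 without Nrf2 KO replicate 1, 2 without replicate 2, 3 without DKO replicate 1, 11 without DKO replicate 2, and 12 with DESeq2.

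Members of the Hsd3b family on chromosome 3, steroid dehydrogenases of which Hsd3b5 is male-biased in mouse liver, changed in opposite directions. Hsd3b3 (chr3:98648793-98670443) had the lowest adjusted p of the comparison together with Eno1b. It had 10294 and 10044 normalized counts in Nrf2 KO and 2909, 2603, and 2950 in DKO, with a log2 fold change of -1.85 (SE 0.11, adjusted p = 2.7e-05). The controls had 8374 to 8812 and the p65 KO libraries 7720 and 8924, so for this member the 3 DKO libraries alone were low. Hsd3b5 (chr3:98525941-98553068) decreased from 11583 and 13038 to 4801, 4138, and 3005 (-1.63, SE 0.19, adjusted p = 0.00417), a call lost without Nrf2 KO replicate 2.

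Hsd3b2 (chr3:98616571-98631859), which lies between these genes, rose from 2096 and 2039 normalized counts in Nrf2 KO to 6910, 6672, and 4069 in DKO (1.51, SE 0.20, adjusted p = 0.00835), a call lost when either Nrf2 KO library was left out. The sum of the 3 similar genes was 23973 and 25121 in Nrf2 KO and 14620, 13413, and 10024 in DKO, so the total fell. It was 19912 to 22027 in control and 15563 and 18860 in p65 KO. All 5 Hsd3b genes tested summed to 50316 and 46753 in Nrf2 KO and 31424, 27202, and 26054 in DKO. This wider sum was 38233 to 41736 in control and 28864 and 29281 in p65 KO, so p65 KO and DKO overlapped in it. Of 25 growth hormone and sex-biased genes, these 2 lower Hsd3b genes were the called members. Cyp4a12a, a male-biased fatty acid hydroxylase, had 16830 and 17316 against 4688, 7632, and 7713 (-1.35, adjusted p = 0.0508).

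**Figure D3:**
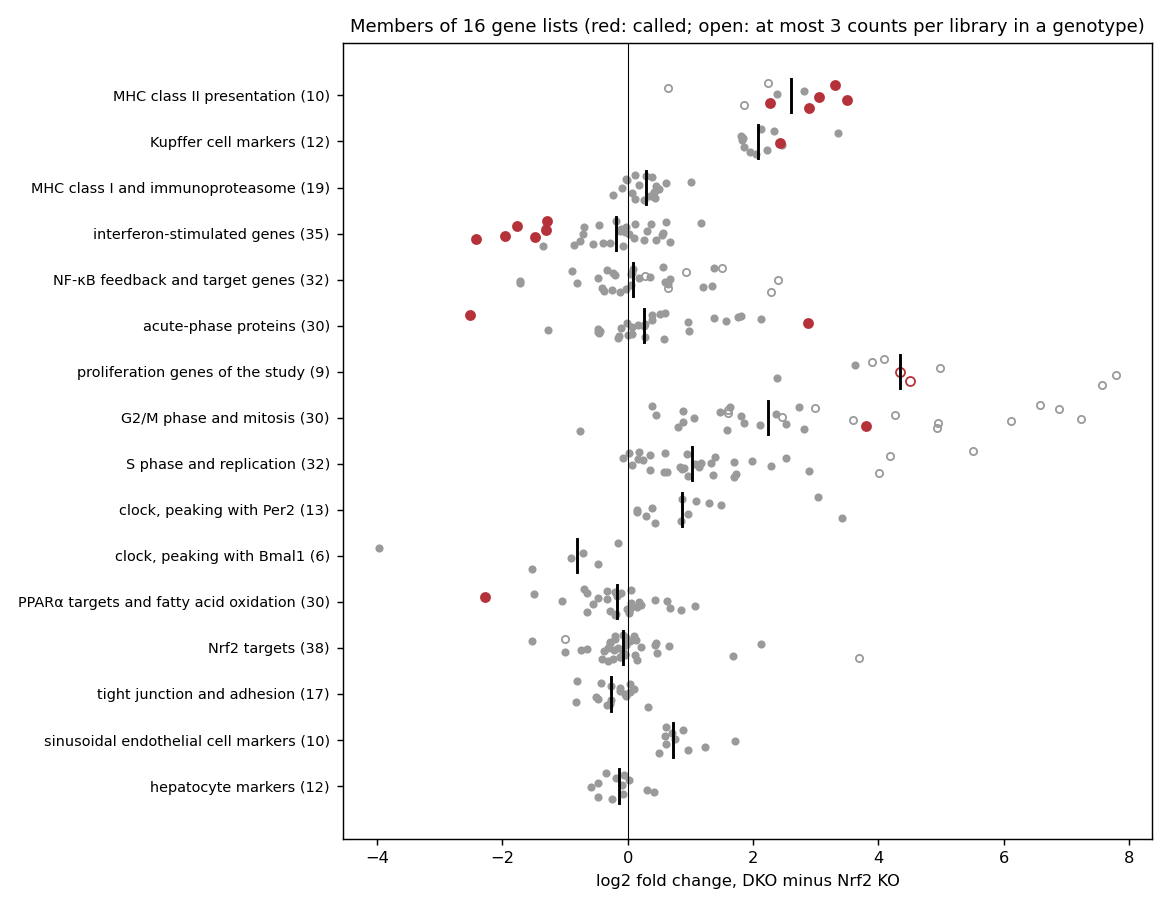
Log2 fold changes of DKO minus Nrf2 KO (horizontal axis) for the tested members of 16 gene lists, with 1 point per gene, the number of genes in brackets, called genes in red, genes with at most 3 counts per library in 1 genotype as open circles, and the list median as a vertical bar. All class II genes and Kupffer cell markers and 29 of 30 G2/M genes lay above 0, the 6 called interferon-stimulated genes lay below 0, and the NF-κB target genes lay on both sides with none called.

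A stretch of distal chromosome 4 held 9 of the 59 called genes. Its bounds were set at called genes after the calls were seen, so its share of calls is a description and not a test. The called gene Isg15 (chr4:156283883-156285303) lies beyond its end. Of 82 tested genes between Tmem51 and Arhgef16 (chr4:141755714-154386133, 12.6 Mb), 11% were called, against 1.86% on chromosome 4 as a whole and 0.336% on the other chromosomes. Of these genes 7 were higher and 2 lower in DKO. In all 9 the 2 Nrf2 KO libraries lay outside the range of the 8 others, and none was called in p65 KO against control. The genotype and the origin of this segment in the Nrf2 flox/flox line cannot be told apart. Several of these genes were in a list drawn up here with earlier results of these data known, so their grouping is not independent.

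Zfp982 and Zfp984, zinc finger genes of a repeated cluster, had 1.98 and 0 normalized counts and 2.97 and 0.808 in Nrf2 KO. In DKO they had 61.0, 92.0, and 108 and 43.1, 41.5, and 38.9, ratios of 96.9 (counting interval 26.5 to 805) and 23.2 (8.81 to 86.6). Miip, an inhibitor of cell migration, had 88.0 and 72.7 against 508, 434, and 344 (2.42, adjusted p = 0.000366). Tmem51, a membrane protein gene, went in the other direction, with 605 and 859 against 109, 77.4, and 84.7 (-3.01, adjusted p = 0.00019).

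Further called genes of the stretch were Fbxo44, Zbtb48, Arhgef16, and Eno1. Fbxo44, an F-box protein gene, had a log2 fold change of 4.64 (adjusted p = 0.0235). Zbtb48, which binds telomeric repeats, had 1.20 (adjusted p = 0.00835) and Arhgef16, a guanine nucleotide exchange factor gene, had 2.52 (adjusted p = 0.00302). Eno1, which encodes the glycolytic enolase, had 6400 and 6870 normalized counts in Nrf2 KO and 20364, 16117, and 20008 in DKO (1.5, adjusted p = 0.0022). Its processed copy Eno1b on chromosome 18 had 8624 and 9629 against 65.2, 25.8, and 34.3 (-7.76, SE 0.46, adjusted p = 2.7e-05). Both share reads, and their sum was 15023 and 16498 in Nrf2 KO, 20429, 16143, and 20042 in DKO, and 14218 to 16419 in control, so DKO and Nrf2 KO overlapped in the sum. The calls of Zbtb48 and Arhgef16 were lost when either Nrf2 KO library was left out, and those of Fbxo44 and Zfp984 without Nrf2 KO replicate 2. Outside the stretch and Eno1b, 49 called genes remained.

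**Figure D4:**
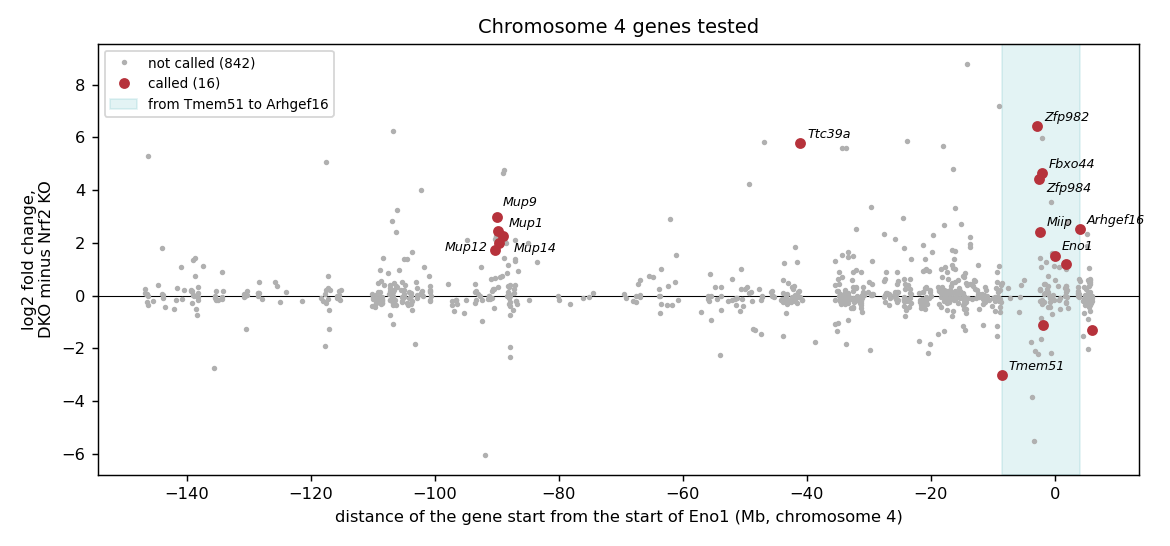
Log2 fold change of DKO minus Nrf2 KO (vertical axis) for the 858 tested genes of chromosome 4 against their distance in Mb from the start of Eno1 (horizontal axis), with the 16 called genes in red and the stretch from Tmem51 to Arhgef16 shaded. The 5 called Mup genes lie together far from Eno1, and 9 called genes of both directions lie in the shaded stretch.

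Further called genes concerned liver metabolism and signaling. Noct, a rhythmic phosphatase of NADP(H), had 655 and 432 normalized counts in Nrf2 KO and 2715, 4561, and 4947 in DKO (2.91, SE 0.32, adjusted p = 0.00302), above all 7 other libraries. The call was lost without Nrf2 KO replicate 2. Nnmt, which methylates nicotinamide, rose from 914 and 884 to 3518, 4503, and 3219 (2.06, adjusted p = 0.0184). Acmsd, an enzyme that diverts tryptophan from NAD synthesis, rose from 752 and 554 to 1548, 1433, and 1898 (1.32, adjusted p = 0.0365). The calls of Nnmt and Acmsd were lost when either Nrf2 KO library was left out. These 3 genes act in nicotinamide nucleotide metabolism, a grouping made after their values were seen.

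Slc10a2, Slc3a1, and Nrg4 were also called higher. Slc10a2, the sodium-dependent bile acid transporter, had 554 and 769 normalized counts in Nrf2 KO and 1264, 2042, and 2200 in DKO (1.47, adjusted p = 0.0244). Slc3a1, a subunit of a cystine and dibasic amino acid transporter, had 1507 and 1550 against 5355, 3844, and 3247 (1.44, adjusted p = 0.0111), with the control libraries at 1445 to 1693. Nrg4, a secreted ErbB4 ligand, had 79.1 and 140 against 274, 366, and 492 (1.77, adjusted p = 0.0223). All 3 calls were lost when either Nrf2 KO library was left out.

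Ttc39a, on chromosome 4 but outside the stretch described above, and Chrm3 had the largest increases of the other genes among those averaging at least 50 normalized counts. Ttc39a, a tetratricopeptide repeat gene, had 2.97 and 2.42 in Nrf2 KO and 140, 59.5, and 259 in DKO, a ratio of 56.9 with a counting interval from 25.9 to 156 (adjusted p = 0.0414). Chrm3, a muscarinic acetylcholine receptor, had 6.92 and 4.04 against 122, 71.8, and 74.4 (4.02, adjusted p = 0.0101). Armcx4 on the X chromosome had 3.95 and 5.66 against 52.6, 58.3, and 40.0 (3.34, adjusted p = 0.0146), and Capn8, a calpain protease, had 27.7 and 24.2 against 177, 101, and 135 (2.40, adjusted p = 0.0176). These 4 calls were lost when either Nrf2 KO library was left out, and that of Ttc39a was lost in 9 of the 18 alternatives. The remaining higher genes included Nbea, a scaffold of vesicle traffic, the tetraspanin gene Tspan7, Fam53b, and the lysosomal sulfatase Galns, with log2 fold changes from 1.05 for Galns to 3.15 for Nbea.

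Among the lower genes, Fgf21 encodes a hepatic hormone induced by fasting and stress through PPARα and ATF4. It had 117 and 88.1 normalized counts in Nrf2 KO and 22.1, 15.7, and 25.2 in DKO (-2.28, SE 0.32, adjusted p = 0.0111), while the controls had 248 to 394 and the p65 KO libraries 366 and 226. The DKO libraries were thus the lowest of all, and the call was lost without Nrf2 KO replicate 1. Nat8f7, an acetyltransferase family gene, fell from 430 and 286 to 7.36, 34.8, and 10.3 (-4.35, adjusted p = 0.00302). Csad, which makes hypotaurine for taurine synthesis, fell from 15595 and 13003 to 6815, 5177, and 7807 (-1.12, adjusted p = 0.0307).

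Sucnr1, the succinate receptor, decreased from 1436 and 1334 normalized counts to 492, 767, and 513 (-1.23, adjusted p = 0.0111). Rtn4rl1, a receptor related to the Nogo receptor, decreased from 435 and 482 to 222, 214, and 183 (-1.15, adjusted p = 0.0102). Clpx, the chaperone subunit of a mitochondrial protease, fell from 7332 and 4522 to 3179, 2910, and 2168 (-1.11, adjusted p = 0.046), the least stable call, lost in 13 of 18 alternatives. The calls of Csad, Sucnr1, and Rtn4rl1 were lost when either Nrf2 KO library was left out.

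Several lists gave no or few calls in DKO against Nrf2 KO. Of 13 clock genes that peak with Per2, all had a positive log2 fold change (median 0.86), and none was called. The DKO libraries lay above both Nrf2 KO libraries in 4 of the 13, where 15.8% of all genes tested did. Per2, a repressor of the clock, had 177 and 386 normalized counts in Nrf2 KO and 589, 607, and 897 in DKO (1.30, adjusted p = 0.0917). Of 6 genes that peak with Bmal1 none was called (median -0.81), and the activator Bmal1 had 700 and 323 against 270, 132, and 130 (-1.52, adjusted p = 0.149). The 2 Nrf2 KO libraries differed widely from each other in both genes. With Nrf2 present, p65 loss gave 12 of 13 and 4 of 6 calls, in the same directions. That comparison called 5.05% of all genes tested higher and 1.54% lower.

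Among 38 Nrf2 target genes none was called. Gclc, the catalytic subunit of glutathione synthesis, passed the adjusted p just under the 2-fold threshold, with 10523 and 9409 normalized counts in Nrf2 KO and 5111, 5326, and 4600 in DKO (-0.99, adjusted p = 0.046). Of 30 PPARα target genes 1, Fgf21, was called (median -0.17), and Plin2, a lipid droplet protein, had a log2 fold change of -0.65 (adjusted p = 0.0719). Of 17 tight junction and adhesion genes none was called. The DKO libraries lay below both Nrf2 KO libraries in 8 of the 17, where 16.4% of all genes tested did. Cldn1, a claudin of hepatocyte junctions, had 4418 and 3958 against 2762, 2269, and 2052 (-0.83, adjusted p = 0.0895).

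None was called among 22 genes of cholesterol synthesis, 18 of bile acid synthesis and transport, 26 of glucose metabolism, 28 of retinoid and xenobiotic receptors, 31 of complement and coagulation, or 24 of zonation. Pfkfb3, an activator of glycolysis, had a log2 fold change of 2.11 (adjusted p = 0.0692), and the retinaldehyde reductase Dhrs3 had -0.62 (adjusted p = 0.0508). Of 25 drug-metabolizing P450 genes none was called. Cyp2a4, a steroid hydroxylase with near-identical copies, was uneven, with 2.97 and 0.808 normalized counts in Nrf2 KO and 1648, 5039, and 11.4 in DKO (adjusted p = 0.103). The 4 globin genes summed to 144 and 106 in Nrf2 KO and 1141, 402, and 164 in DKO (log2 difference 1.77, exact permutation test, 2-sided, p = 0.2). DKO replicate 1 thus had the highest globin sum.

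Loss of p65 with Nrf2 present, p65 KO against control, gave 899 called genes (6.59%), of which 689 were higher (5.05%) and 210 lower (1.54%). Without p65 KO replicate 1 there were 325, and without control replicate 1 there were 498. Both comparisons called 19 genes in the same direction, which is 32.2% of the 59 and 2.11% of the 899, and 4 Mup genes in opposite directions. Of the 689 genes higher with Nrf2 present, 89.8% also had a positive value without Nrf2, with a median log2 fold change of 1.04 instead of 2.45. Of the 210 lower genes 79.5% were negative, with a median of -0.41 instead of -1.45. The medians with Nrf2 present come from the contrast that chose these genes, and those without Nrf2 do not.

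For the class II genes, p65 loss gave a median log2 fold change of 3.92 with Nrf2 and 2.60 without. The difference between both responses, tested as an interaction, was called for none of them (0 of 10). For Cd74 the values were 4.33 and 2.89 (interaction adjusted p = 0.257). Overall 62 genes were called in the interaction (0.455%), 36 with a higher and 26 with a lower response without Nrf2. This count moved between 8, without Nrf2 KO replicate 2, and 119, without DKO replicate 2.

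Some interferon-stimulated and Mup genes passed this test, and most did not. With Nrf2 present, p65 loss gave 13 called higher and 4 called lower of 35 interferon-stimulated genes (median 0.66), and 6 of the 35 had a called lower interaction. The corresponding shares of all genes tested were 5.05%, 1.54%, and 0.191%. For Usp18 the response was 0.80 with and -1.28 without Nrf2 (interaction adjusted p = 0.0106). For Ifit3 and Ifi44 the interaction had adjusted p-values of 0.0221 and 0.0106. Gm4841, an interferon-inducible GTPase gene, had 4480 and 5104 normalized counts in p65 KO, 9.94 to 23.6 in control, 24.7 and 17.8 in Nrf2 KO, and 27.4, 38.1, and 20.6 in DKO. It had the lowest interaction p of all genes (log2 difference -7.58, adjusted p = 7.89e-05).

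Mup genes showed a median of -1.44 with Nrf2, where 9 of 22 were called lower, and of 2.01 without, and 9 of 22 were called in the interaction. Among all genes tested 1.54% were called lower with Nrf2 and 0.455% were called in the interaction. Mup12 had -1.42 with and 1.98 without Nrf2 (interaction adjusted p = 0.000357). The response of Hsd3b3 also differed between the backgrounds (interaction log2 difference -1.81, adjusted p = 0.000679), whereas that of Fgf21 missed the threshold (adjusted p = 0.052). Reads are divided between Hsd3b3 and its similar copies, so the Hsd3b3 value is uncertain. Efhd2, a calcium-binding protein gene, responded to p65 loss differently with and without Nrf2. It had 1443 and 1800 in p65 KO against 593 to 670 in control, and 575, 652, and 696 in DKO against 716 and 810 in Nrf2 KO (interaction -1.59, adjusted p = 0.00794).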

How the data were processed

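The authors quantified single-end, stranded poly-A reads with Salmon 1.10.3 on GRCm39 transcripts of GENCODE M33, and the deposited values are estimated counts per gene in whole numbers. Although the table is named as normalized, its totals differ between libraries, so they were taken as not normalized. Columns were assigned to mice by name. The test was edgeR 4.0.16 under R 4.3.3 (TMM, quasi-likelihood, 1 model of 4 genotypes), after a filter of 10 counts over the libraries, with Benjamini-Hochberg adjustment over 13641 genes. The authors used DESeq2 1.42.1, and DESeq2 1.42.0 was an alternative here. The interaction is DKO minus Nrf2 KO minus the difference of p65 KO and control. Salmon divides reads between similar genes, so members of gene families are uncertain. A gene at 0 in 1 group was bounded with 3 counts per library, and ratios of low counts have exact 95% intervals that cover counting error only. The code was tested on simulated data.

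Named genes were the targeted genes, the 10 largest increases and decreases among called genes averaging at least 50 normalized counts whose libraries did not overlap, the members of each list with the lowest p, the study's proliferation genes, and the 10 lowest interaction p-values. Other called genes were named after their values were seen, and some genes counted in the totals are not reported here. Members and the 40 lists were chosen with earlier results of these data known. Alternatives were other scalings, filters, and tests, a replicate block, a fit of the compared genotypes alone, and the omission of each library. For single gene lists, the omissions and DESeq2 were added after seeing the data. Promoter windows covered 200 bases before the start of the canonical transcript in GENCODE M39.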

Additional observations from a re-analysis of the deposited data

Results flagged for a closer look

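In 21 of the genes described, the response to p65 loss differed between the Nrf2-deficient and the Nrf2-containing background by the interaction test (edgeR, adjusted p from 7.89e-05 to 0.0343). The values given are log2 differences of the 2 responses, each resting on 3 against 2 libraries in both backgrounds. Lower responses without Nrf2 were found for Gm4841 (-7.58), Eno1b (-7.25), Tmem51 (-3.59), Ifi44 (-3.01), Usp18 (-2.08), Hsd3b3 (-1.81), Ifit3 (-1.77), and Efhd2 (-1.59).

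Higher responses without Nrf2 were found for Zfp982 (6.76), Mup9 (5.06), Zfp984 (4.33), Mup1 (3.95), Mup14 (3.73), Mup12 (3.40), Capn8 (2.92), Mup7 (2.37), Miip (2.07), Hsd3b2 (1.74), Slc3a1 (1.64), Eno1 (1.52), and Cyp4a32 (1.52). Cyp4a32, a fatty acid hydroxylase gene, fell from 1010 to 1063 normalized counts in control to 489 and 475 in p65 KO, whereas it had 559 and 449 in Nrf2 KO and 611, 732, and 689 in DKO. In Tmem51, Eno1, Eno1b, Miip, Zfp982, Zfp984, Capn8, Ifit3, and Hsd3b3 the 2 Nrf2 KO libraries lay outside the range of the 8 others. Eno1b had 8624 and 9629 in Nrf2 KO, against 16.7 to 65.2 in control, 18.3 and 44.4 in p65 KO, and 25.8 to 65.2 in DKO. Tmem51, Eno1, Miip, Zfp982, and Zfp984 lie in the chromosome 4 stretch, and Eno1b shares reads with Eno1. There, genotype and origin in the Nrf2 flox/flox line cannot be told apart, so these interaction values need not be responses to p65 loss. No group had the 4 samples needed to examine single libraries as outliers.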

How the results depend on the processing

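The 59 calls (40 higher, 19 lower) became 292 (230 and 62) with DESeq2's Wald test, 112 (80 and 32) without the filter, and 18 (8 and 10) with only the genotypes compared. They were 59 to 62 with other scalings or a mean of 10 counts per library. Equal totals gave 38 higher and 24 lower. Leaving out 1 library gave 18 to 81 calls, 9 to 58 of them higher and 8 to 25 lower. Without Nrf2 KO replicate 1 or 2 there were 21 (13 and 8) and 18 (9 and 9). The single remaining library was then assumed to vary like the other groups. Replicate numbers do not pair the mice by the labels, and same-numbered DKO and Nrf2 KO libraries had correlations of -0.000337 and -0.0756. The replicate block gave 37 calls (21 higher), 34 of them shared with the 59. Called members ranged from 0 to 5 for MHC class II, from 1 to 6 for interferon-stimulated genes, from 0 to 2 for the proliferation genes, and from 1 to 11 for Mup genes when 1 library was left out, and DESeq2 gave 9 and 12 for the last 2 lists. Leaving out 1 library gave 325 to 954 calls in p65 KO against control and 8 to 119 in the interaction, where DESeq2 gave 249, equal totals 118, and no filter 137. The summed Mup difference ranged from 1.08 to 1.57 and the globin difference from 1.05 to 2.45. Of the 59 called genes 8 kept their call in all 18 alternatives, 51 lost it in at least 1, and 0 reversed. With 2 or 3 mice per genotype and few reads for mitotic genes, depth and mouse number limit these calls, and the cause of single lost calls was not tested.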
